A study of Mus musculus with 8 samples.

Results

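The genes described here are 9 genes through which cells release, bind and sense Hedgehog: Shh, Disp1, Scube2, Ptch1, Hhip, Smo, Boc, Gas1 and Cdon. They were taken by symbol from the gene tables, which hold 24062 genes, and from the exon bin tables, in which they have 123 of 219958 bins. All 9 had rows, and all 9 were among the 15789 genes that passed the filter on low counts. PolyA RNA was sequenced from whole cerebella, each from 1 pup at postnatal day 2 on a mixed C57BL/6 background. The 4 mutants had the Math1-Cre transgene, 1 floxed Sufu allele and 1 null allele, and the 4 littermate controls had 1 floxed and 1 wild-type Sufu allele. All pups came from a cross in which one parent was homozygous for the floxed Sufu allele and for Math1 mgfp, so the controls also inherited both of these. The Cre status of the controls is not stated. Math1-Cre acts in the lineage of cerebellar granule neurons, so deletion by Cre was aimed at part of the tissue, while every cell of a mutant carried the null allele. The null allele and the Cre deletion cannot be told apart here.

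Shh is a secreted, lipid-modified signal which Purkinje cells make in the newborn cerebellum, where it drives the division of granule cell precursors. Without the ligand, the receptor Ptch1 holds the membrane protein Smo inactive, and binding of the ligand, aided by the co-receptors Boc, Cdon and Gas1, lifts that block. Smo then acts on a complex of Sufu and the Gli transcription factors, so Sufu works downstream of all the proteins described here, while Ptch1 and Hhip are themselves transcribed in response to Gli.

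Ptch1 and Hhip are target genes, and Gas1 was the only one of the 9 to pass a test for a difference between the letters in the sample titles, so the start of each of these 3 genes is shown. Promoter windows of 300 bases, from 250 before to 50 after an annotated start, came from RefSeq on GRCm38.p6, and 7 of the 9 genes had one. The sequences run 5′ to 3′ on the minus strand, and capitals mark the first 30 bases after the start.
Ptch1, chr13:63565706-63565985: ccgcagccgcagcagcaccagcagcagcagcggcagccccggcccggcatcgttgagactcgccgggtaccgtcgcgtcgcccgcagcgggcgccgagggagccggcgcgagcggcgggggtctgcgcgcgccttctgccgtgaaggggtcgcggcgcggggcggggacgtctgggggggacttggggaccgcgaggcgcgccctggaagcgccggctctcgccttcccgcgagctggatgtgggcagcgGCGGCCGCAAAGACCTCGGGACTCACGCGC
Hhip, chr8:80057979-80058258: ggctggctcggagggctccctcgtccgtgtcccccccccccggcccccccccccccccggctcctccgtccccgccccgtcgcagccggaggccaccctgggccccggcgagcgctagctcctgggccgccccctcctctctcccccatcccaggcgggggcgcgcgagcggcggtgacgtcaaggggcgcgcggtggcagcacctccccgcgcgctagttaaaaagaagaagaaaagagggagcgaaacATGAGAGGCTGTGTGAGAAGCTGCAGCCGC
Gas1, chr13:60177506-60177785: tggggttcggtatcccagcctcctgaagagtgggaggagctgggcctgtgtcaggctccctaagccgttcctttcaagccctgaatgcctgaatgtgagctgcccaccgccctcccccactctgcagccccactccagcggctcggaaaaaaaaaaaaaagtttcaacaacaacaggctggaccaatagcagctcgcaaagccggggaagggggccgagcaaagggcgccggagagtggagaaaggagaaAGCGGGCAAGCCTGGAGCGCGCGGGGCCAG
The Ptch1 start lies inside the span of the longer annotated gene, so it belongs to a transcript that begins further in. All 3 windows were rich in G and C, with 76.3% in Ptch1, 73.7% in Hhip and 62.3% in Gas1, against a median of 52.7% over all promoters in the same set. The Gli binding sequence GACCACCCA was looked for on both strands, together with its core ACCACCC, which lies inside it. Neither was found in any of the 8 windows of the 7 genes, while 0.253% of all 32851 promoters held the whole sequence and 4.61% held the core. At shares this low, finding none in 8 windows was the likely result and says little about these genes. Only exact matches were looked for, and a site outside these windows was not looked for.

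Library totals over genes ran from 21479565 to 26638284 counts, and the 9 genes had between 84 and 4151 counts in a library. Levels are given as CPM, counts scaled to a common library size on TMM-scaled sizes, with the libraries of a group numbered 1 to 4. The sample titles carry a letter, P for libraries 1 and 2 of each group and R for libraries 3 and 4, whose meaning is not stated. The share of entries that fell in genes was 65.7 to 69.9% with letter P and 73.7 to 75.2% with letter R. The targeted gene, Sufu, stood at 31.7, 34.4, 36.8 and 39.8 CPM in mutants, against 47.7, 51.0, 55.9 and 60.7 CPM in controls, so every mutant lay below every control. Granule precursor and Purkinje cell markers were present in all 8 libraries, and summed levels of 10 hindbrain Hox genes were 157, 59.9, 87.9 and 6.06 CPM in mutants and 108 to 187 CPM in controls. Mutants 2, 3 and 4 thus lay below every control in these markers of tissue behind the cerebellum, and mutant 4 stood furthest apart. The log2 fold change without mutant 4 was 0.36 for Boc, 0.27 for Smo, 0.24 for Gas1, 0.13 for Ptch1, 0.22 for Scube2, 0.09 for Shh, 0.12 for Cdon, 0.07 for Hhip and 0.05 for Disp1.

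Across the ligand, its receptors and co-receptors, none of the 9 genes changed past the threshold between mutants and controls, and the mean level of each was higher in mutants. The margins ran from a log2 fold change of 0.07 for Disp1 to 0.57 for the co-receptor Boc, with a median of 0.24 against 0.01 over all genes tested. Of all genes tested, 8254 (52.3%) had a log2 fold change above 0. The 9 genes were read in the same libraries, so their shared direction is not 9 separate observations. Of all genes tested, 0% passed edgeR's quasi-likelihood test after Benjamini-Hochberg adjustment at 0.05, so a count of 0 of 9 is the background itself. At an unadjusted p below 0.05 there were 1995 genes (12.6%), with Boc and Smo, 2 of the 9, among them. Over all genes, DESeq2 called 52 after adjustment and limma-voom called 0, and neither tool called any of the 9. In none of the 9 did all 4 mutants lie above, or below, all 4 controls, while 6.57% of all genes had groups that did not overlap. Adjusted p-values of the 9 in edgeR's quasi-likelihood test ranged from 0.381 to 0.806. Because whole tissue was sampled, a larger share of the cells that express a gene and more of its RNA per cell cannot be told apart, here and below.

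**Figure D1:**
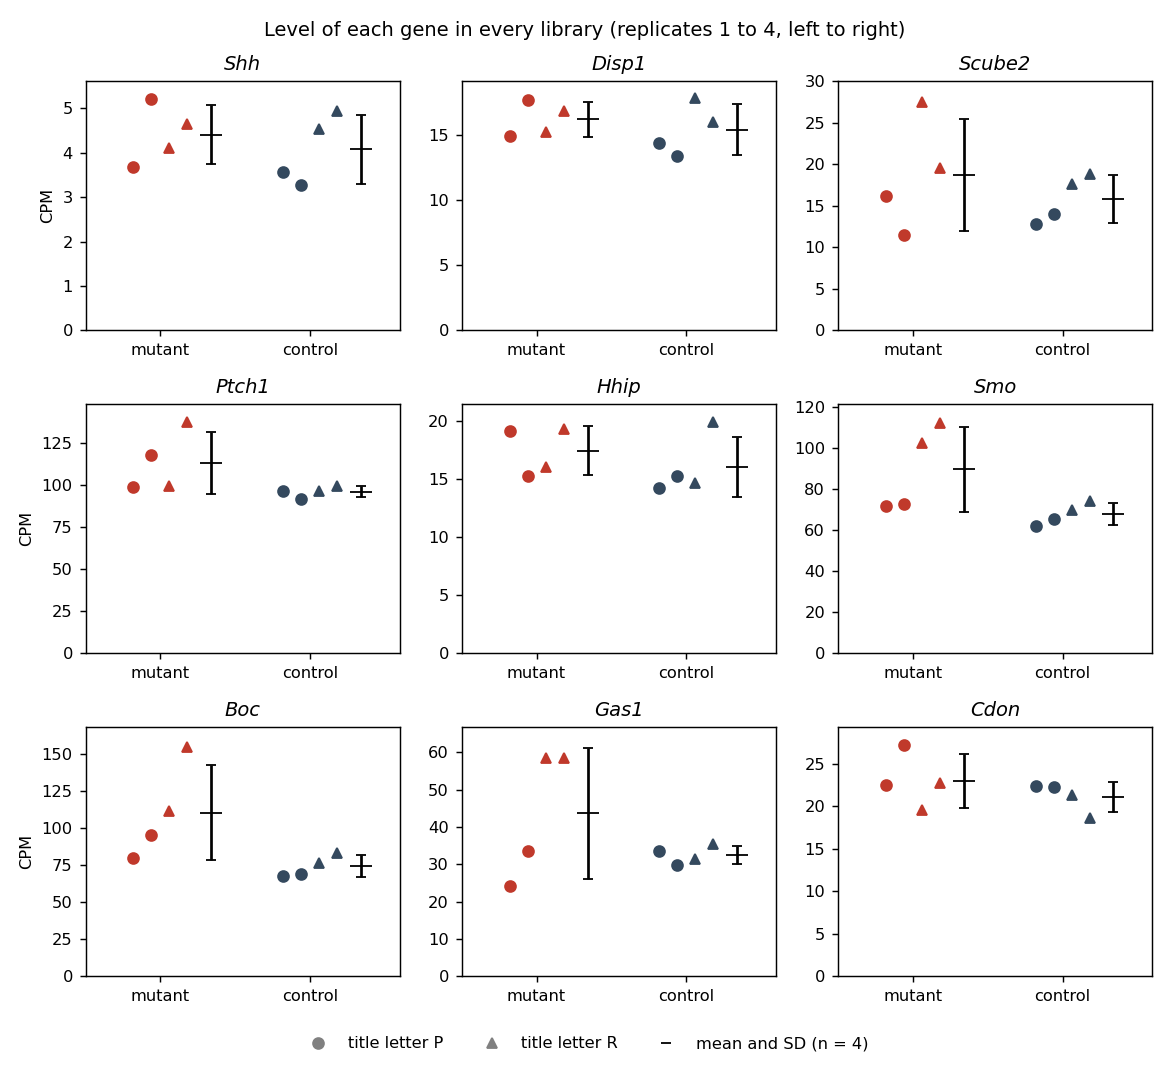
Level in CPM (vertical axis, from 0) of each of the 9 genes in every mutant (red, left) and control (blue, right) library, with circles for title letter P, triangles for R, and the mean with SD beside each group. The SD was larger in mutants than in controls for Ptch1, Scube2, Smo, Boc, Gas1 and Cdon, and smaller for Shh, Disp1 and Hhip. The groups overlap in all 9 panels.

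Among the genes of ligand release, Shh itself was the least abundant. Shh stood at 3.67, 5.20, 4.11 and 4.65 CPM in mutants, against 3.56, 3.28, 4.52 and 4.93 CPM in controls. The groups covered nearly the same range, with a log2 fold change of 0.12 (SE 0.18), and with 84 to 125 counts per library the depth allows only a coarse comparison. A gene on the opposite strand, 9530036O11Rik, overlaps Shh in GENCODE M21, and the strand setting of the counting is not stated. That gene averaged 0.407 ± 0.215 CPM in mutants and 0.444 ± 0.126 CPM in controls (SD, n = 4 each).

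Disp1, a membrane transporter that releases the lipid-bearing ligand from the cells that make it, stood at 14.9, 17.7, 15.2 and 16.8 CPM in mutants, against 14.4, 13.4, 17.8 and 16.0 CPM in controls. Scube2, a secreted protein that helps the ligand leave the cell, stood at 16.2, 11.5, 27.5 and 19.6 CPM in mutants, against 12.8, 14.01, 17.6 and 18.8 CPM in controls. All Disp1 values of mutants lay within the control range. For Scube2, mutants 3 and 4 lay above every control and mutant 2 lay below every control. The log2 fold change was 0.07 (SE 0.12) for Disp1 and 0.24 (SE 0.24) for Scube2. Without mutant 3, the value of Scube2 was -0.00302, so its margin rested on that library, and without control 2 the value of Disp1 was -0.00708.

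Ptch1, the receptor, was close to the same level in all controls and more spread in mutants. It stood at 98.8, 118, 99.5 and 138 CPM in mutants, against 96.9, 91.9, 96.6 and 99.6 CPM in controls. Mutants 2 and 4 lay above every control, while mutants 1 and 3 lay within the control range. The log2 fold change was 0.24 (SE 0.11), with an adjusted p of 0.400 in edgeR's quasi-likelihood test. Leaving out each library in turn gave 0.13 to 0.30, the Hox score as a covariate gave 0.0624 and Xist as a covariate gave 0.0436. The part of pup sex in these differences was not tested.

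Hhip, a membrane protein that binds the ligand without passing the signal on, stood at 19.2, 15.3, 16.0 and 19.3 CPM in mutants, against 14.3, 15.3, 14.7 and 19.95 CPM in controls. The highest library was control 4, and the ranges overlapped. Its log2 fold change was 0.12 (SE 0.14), and it was 0.22 among libraries with letter P and 0.00228 among those with letter R.

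Smo, the transducer that Ptch1 holds inactive, stood at 71.8, 72.6, 103 and 112 CPM in mutants, against 62.2, 65.4, 69.9 and 74.3 CPM in controls. Mutants 3 and 4 lay well above every control, and mutants 1 and 2 lay below control 4. The means were 89.9 ± 20.8 CPM in mutants and 68.0 ± 5.29 CPM in controls (SD, n = 4 each). The log2 fold change was 0.40 (SE 0.15), with an adjusted p of 0.381 in edgeR's quasi-likelihood test. Within each letter the mutants were higher than both controls, by 0.17 (SE 0.10) on the log2 scale with letter P and by 0.55 (SE 0.09) with letter R.

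Of the 3 co-receptors, Boc had the largest difference. Boc, a membrane protein with immunoglobulin and fibronectin repeats, stood at 79.6, 95.4, 112 and 154 CPM in mutants, against 67.7, 69.1, 76.5 and 83.4 CPM in controls. Mutants 2, 3 and 4 lay above every control, and mutant 1 lay below control 4 alone. Boc averaged 110 ± 32.2 CPM in mutants and 74.2 ± 7.28 CPM in controls (SD, n = 4 each), a log2 fold change of 0.57 (SE 0.18) with an adjusted p of 0.381 in edgeR's quasi-likelihood test. It was the largest fold change of the 9. It stayed positive in all 19 alternatives, between 0.12 and 0.70, and so did the fold changes of Ptch1, Smo, Cdon and Hhip. The lowest value was only 0.00572 for Cdon and 0.00228 for Hhip. The alternatives use the same 8 libraries or parts of them, so they are not separate observations. For Boc, leaving out each library in turn gave 0.36 to 0.69.

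Cdon, which is built like Boc, stood at 22.5, 27.3, 19.5 and 22.7 CPM in mutants, against 22.4, 22.2, 21.3 and 18.6 CPM in controls. Mutants 1, 2 and 4 lay above every control, mutants 1 and 4 by a slight margin, and mutant 3 lay above control 4 alone. The log2 fold change was 0.12 (SE 0.12).

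Gas1, a co-receptor held in the membrane by a lipid anchor, stood at 24.1, 33.4, 58.4 and 58.5 CPM in mutants, against 33.4, 29.9, 31.5 and 35.4 CPM in controls. Mutants 3 and 4, both of letter R, lay far above every control, while mutant 1 lay below every control and mutant 2 lay among them. The log2 fold change was 0.42 (SE 0.25) over all 8 libraries, -0.14 (SE 0.16) with letter P and 0.78 (SE 0.10) with letter R. The difference between the letters, R minus P, was 0.94 (SE 0.21), and the interaction of genotype and letter had an adjusted p of 0.0496 in edgeR's quasi-likelihood test. Of all genes tested, 3.2% passed that interaction test, against 1 of the 9. For the other 8 genes the adjusted p of the interaction in the same edgeR test was 0.115 to 0.864. The Gas1 call rests on a narrow margin: its adjusted p was 0.0546 with RLE scaling, and leaving out 1 library kept the call only for mutant 3 (edgeR adjusted p = 0.0256), with differences of 0.72 to 1.18 and adjusted p-values up to 0.213 over the 8 cases. A long noncoding RNA on the opposite strand, Gm48488, overlaps Gas1 in GENCODE M21, and its part in these counts was not tested.

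**Figure D2:**
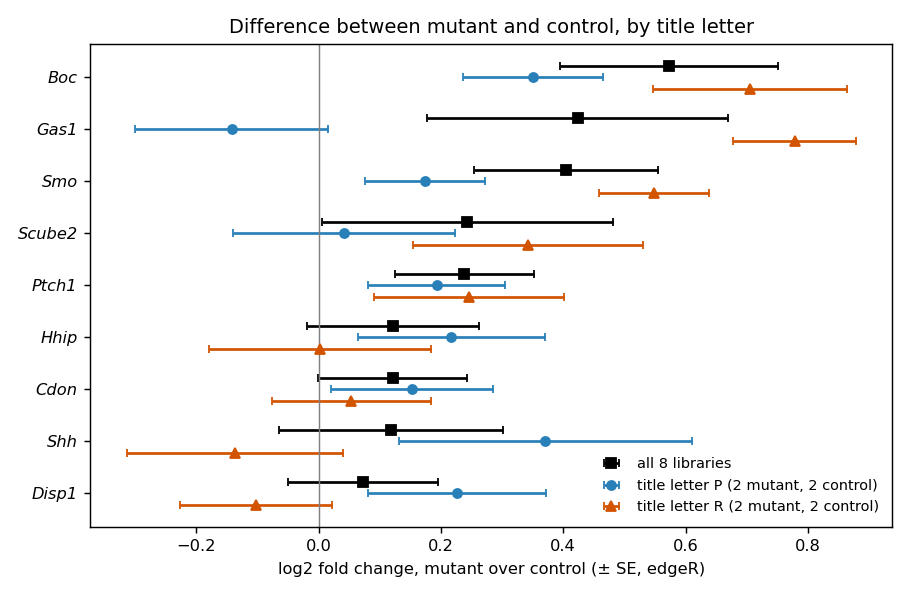
Log2 fold change of mutants over controls with its SE (horizontal axis) for each gene, over all 8 libraries (black squares) and among the 2 mutants and 2 controls of title letter P (blue circles) or R (orange triangles). Gas1 is at -0.14 with letter P and 0.78 with letter R, and Shh and Disp1 also lie on opposite sides of 0 in the 2 letters.

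Set against transcript length, the transducer and the co-receptor Boc were the most abundant of the 9 genes, and Shh the least. CPM per kb was taken over the longest coding transcript of each gene in GENCODE M21 on GRCm38, which is not the build of the counts, so these levels are approximate. On the minus strand that annotation places Shh at chr5:28456815-28467256, Disp1 at chr1:183086266-183221522, Scube2 at chr7:109798676-109865679, Ptch1 at chr13:63508328-63573598, Hhip at chr8:79965851-80058006, Boc at chr16:44485049-44558897 and Gas1 at chr13:60174405-60177365. On the plus strand it places Smo at chr6:29735503-29761365 and Cdon at chr9:35421128-35507652. In mutants, Boc averaged 24.8 ± 7.23 CPM per kb and Smo 23.8 ± 5.49, against 16.7 ± 1.63 for Boc and 17.98 ± 1.40 for Smo in controls (SD, n = 4 each). Gas1 averaged 14.7 ± 5.93 CPM per kb in mutants and 11.0 ± 0.801 in controls, and Ptch1 averaged 14.7 ± 2.39 in mutants and 12.5 ± 0.412 in controls. Scube2 stood at 5.24 ± 1.90 CPM per kb in mutants and 4.43 ± 0.806 in controls. At the low end, Disp1 averaged 3.25 CPM per kb in mutants and 3.09 in controls, and Cdon 3.07 in mutants and 2.82 in controls. Hhip averaged 1.93 CPM per kb in mutants and 1.77 in controls, and Shh 1.55 in mutants and 1.43 in controls. In mutants the library ranges of neighbours in this order overlapped for Boc and Smo, for Gas1 and Ptch1, for Scube2 and Disp1, for Disp1 and Cdon, and for Hhip and Shh. In controls they overlapped for Smo and Boc, for Ptch1 and Gas1, for Disp1 and Cdon, and for Hhip and Shh, and Scube2 and Disp1 were apart by a hair. Gas1 in mutants ran from 8.14 to 19.8 CPM per kb, so its range also met that of Smo, which began at 19.0.

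The exon bins show whether a gene's difference ran along its whole length. Of the 123 bins, 121 passed the filter, 101 were higher in mutants and 20 lower, and 0 passed edgeR's quasi-likelihood test after Benjamini-Hochberg adjustment, where 0% of the 153897 bins tested did and 14838 (9.64%) had an unadjusted p below 0.05. Over all bins tested, 79517 were higher in mutants and 74380 lower. The median log2 fold change of the 121 bins was 0.26, against 0.01 over all bins tested. In 6 bins all mutants lay above all controls, of which 5 belong to Boc and 1 to Ptch1, and in 1 bin of Disp1 all mutants lay below. The shares over all bins tested were 2.49% and 2.52%. Bin numbers are those of the deposited tables, and bins of 1 gene share reads and libraries, so they are not replicates.

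All 19 bins of Boc were higher in mutants, in a narrow band from 0.47 to 0.64 on the log2 scale. The 5 Boc bins with no overlap were bins 1, 2, 5, 6 and 7. In bin 6 the mutants stood at 5.31, 6.21, 6.45 and 7.78 CPM, against 3.68, 3.64, 4.43 and 4.85 CPM in controls. All 12 bins of Smo were higher as well, by 0.26 to 0.46, as were all 23 of Ptch1, by 0.00886 to 0.38, and all 3 of Shh, by 0.08 to 0.20. Bins lay on both sides of 0 in Cdon, with 13 of 19 higher, in Hhip, with 10 of 13, and in Scube2, with 19 of 22. Gas1 has 1 bin, which was higher by 0.39.

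Disp1 was the gene whose bins parted from the whole. Its bin 1 was higher in mutants by 0.14 on the log2 scale, and the other 8 tested bins were lower, with log2 fold changes of -0.69 to -0.04. Bin 1 held 55.7, 56.1, 60.3 and 59.4% of the gene's bin counts in mutants, against 53.4, 46.1, 52.1 and 51.5% in controls, so every mutant lay above every control. These shares were picked out after their values were seen and carry no test of their own. Over the 9 genes, the share of a bin did not overlap between groups in 4 of 120 bins (bins 1, 4 and 6 of Disp1 and bin 9 of Hhip), where 1.98% of all bins did. Shares of 1 gene are parts of the same total, so a higher share in bin 1 of Disp1 lowers those of its other bins. The Disp1 bins are thus not separate observations. A pseudogene on the same strand, BC085271, overlaps the span of Disp1 in GENCODE M21 and has no row in the gene tables, and its part in the bin counts was not tested. Bins 4 and 6 of Disp1 held between 9 and 45 counts in a library, so counting noise is large there. No gene of the 9 passed the test for changed bin use in edgeR (Simes' method, Benjamini-Hochberg adjusted), which called 0.00749% of 13351 genes.

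**Figure D3:**
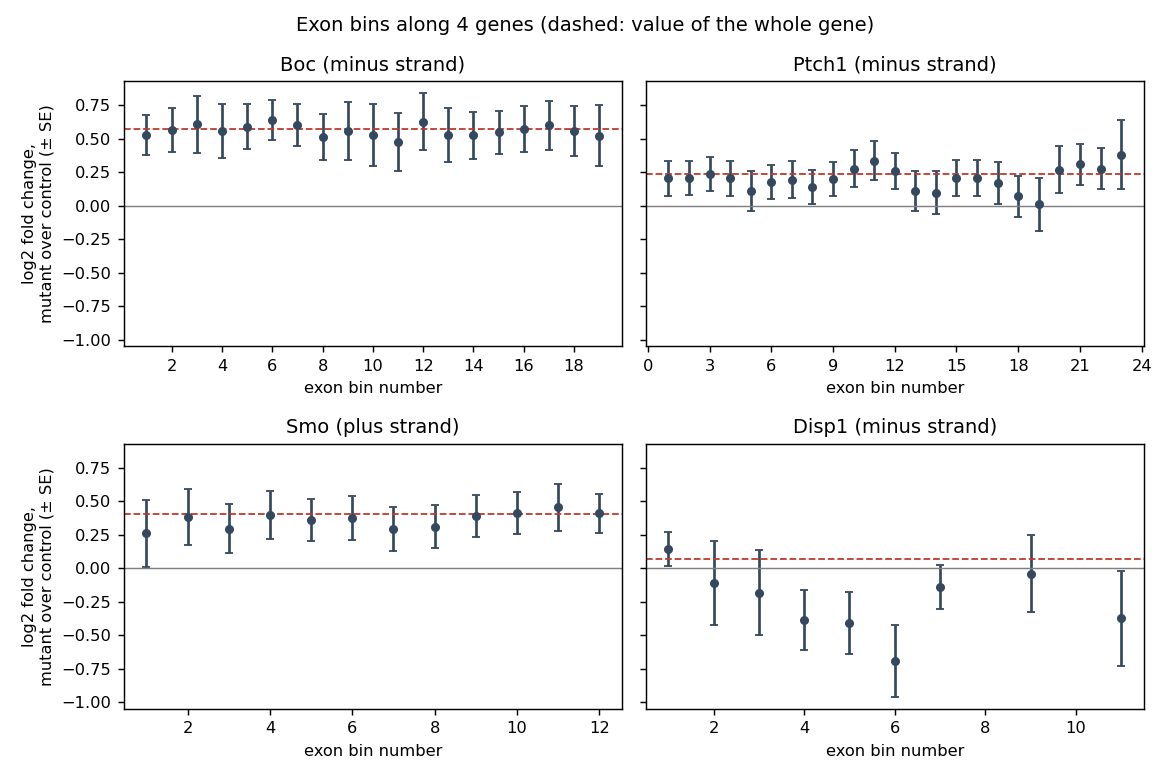
Log2 fold change of mutants over controls with its SE (vertical axis) for each tested exon bin, by bin number (horizontal axis), in Boc, Ptch1, Smo and Disp1, with a dashed line at the value of the whole gene. Boc bins lie between 0.47 and 0.64, and in Disp1 bin 1 alone lies above 0.

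Levels of several of these genes moved with markers of granule cell precursors, which are among the cells that receive the signal. The summed level of 10 such markers, among them Atoh1, Barhl1 and Pax6, was 1233, 1563, 1757 and 2362 CPM in mutants, against 1194, 1183, 1387 and 1407 CPM in controls, and all 10 markers had a higher mean in mutants. In both Boc and the markers, mutant 4 was highest, followed by mutants 3 and 2, and controls 1 and 2 were lowest. With the marker score as a covariate, an alternative added after the data were seen, the log2 fold change was 0.12 (SE 0.08) for Boc, 0.0680 for Smo, 0.0634 for Ptch1, -0.19 for Gas1, 0.20 (SE 0.14) for Cdon and 0.0483 for Hhip, and it was below 0 for Shh, Disp1 and Scube2. Cdon thus had the highest value of the 9 in that fit. With the Hox score as a covariate it was 0.29 (SE 0.16) for Boc, 0.25 for Smo, 0.0624 for Ptch1, 0.16 for Gas1, 0.31 for Scube2, 0.11 for Hhip, 0.0740 for Cdon, 0.0673 for Shh and 0.0444 for Disp1. Purkinje markers summed to 1088, 970, 1047 and 1439 CPM in mutants, against 775, 835, 1024 and 1189 CPM in controls, and all 11 had a higher mean in mutants. The summed choroid plexus markers ran from 3912 to 6568 CPM in mutants and from 1576 to 3614 CPM in controls, so every mutant lay above every control. Of these, 10 of 11 had higher means in mutants. In 9 of them every mutant lay above every control, against 3.6% of all genes tested. Most of the sum came from Ttr, with means of 4457 CPM in mutants and 2406 CPM in controls. Oligodendrocyte markers summed to 644 to 1245 CPM in mutants and to 1246 to 1873 CPM in controls, and 8 of 9 had lower means in mutants. Endothelial and pericyte markers, 9 of 9 with higher means in mutants, summed to 299 to 427 CPM in mutants and to 269.5 to 336 CPM in controls. Bergmann glia and astrocyte markers summed to 3591 to 4454 CPM in mutants and to 3784 to 4369 CPM in controls. Of these, 7 of 11 had higher means in mutants. GABAergic interneuron markers, 4 of 6 with lower means in mutants, summed to 322 to 400 CPM in mutants and to 354 to 485 CPM in controls. Microglia markers, 7 of 7 with lower means in mutants, summed to 105 to 169 CPM in mutants and to 136 to 210 CPM in controls. Brainstem neuron markers, 5 of 6 with lower means in mutants, summed to 5.50 to 49.7 CPM in mutants and to 46.3 to 62.0 CPM in controls. Floor plate markers, from a midline tissue that also makes Shh, summed to 172 to 227 CPM in mutants and to 200 to 248 CPM in controls. The 4 tested markers had lower means in mutants. Nearly all of the sum came from Spon1, with means of 108 CPM in mutants and 125 CPM in controls, and Ntn1, with 89.9 and 91.1 CPM. Foxa1 had only 0.0743 to 1.14 CPM in mutants and 0.503 to 1.51 CPM in controls, and Foxa2 did not pass the filter on low counts. Mutants 2, 3 and 4 lay above every control in the summed granule precursor markers and below every control in the summed Hox genes. The fits with these 2 scores therefore cannot part cell makeup from genotype. The part of the cell makeup in the differences of the 9 genes was not tested.

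**Figure D4:**
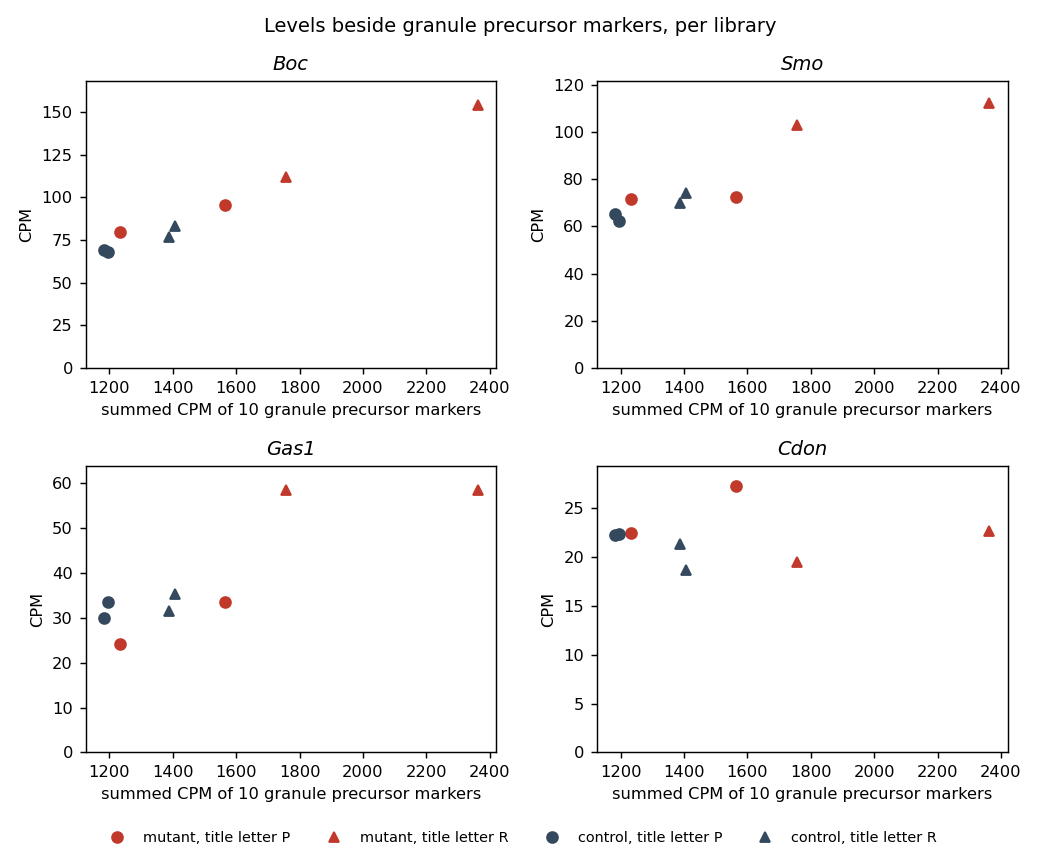
Level in CPM (vertical axis, from 0) of Boc, Smo, Gas1 and Cdon in each library against the summed CPM of 10 granule precursor markers (horizontal axis), for mutants (red) and controls (blue), with circles for title letter P and triangles for R. Boc climbs with the markers to 154 CPM in mutant 4, while Cdon stays between 18.6 and 27.3 CPM.

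The genes whose levels ran most like those of each gene were found by Pearson's r on log2 CPM over the 8 libraries, among 14704 genes. These libraries differ in genotype, title letter and tissue makeup, and a high r was common for some of the 9 and rare for others. Boc had 681 genes with r above 0.9, led by Espl1 (r = 0.998), which encodes the protease separase that parts sister chromatids, and by Trp53 (r = 0.997), the p53 tumour suppressor. Smo had 575, led by Ccdc134 (r = 0.990) and Nono (r = 0.988), and Gas1 had 452, led by Gins2 (r = 0.994) and Rfc3 (r = 0.990), both of DNA replication. Ptch1 had 107, led by Kdm3b (r = 0.985) and Shroom4 (r = 0.968), Shh had 69, led by Prr12 (r = 0.987) and Zswim8 (r = 0.974), and Disp1 had 43, led by Sec31a (r = 0.980) and Foxk1 (r = 0.974). Few genes ran like Scube2, with 16 led by Fn3krp (r = 0.966) and Rae1 (r = 0.945), like Hhip, with 9 led by Veph1 (r = 0.960) and Tbc1d14 (r = 0.943), or like Cdon, with 7 led by Ceacam1 (r = 0.977) and Glb1l (r = 0.947).

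The rest of the pathway shows where the 9 genes stood among their partners. Of the other genes of ligand supply, 5 of 6 were tested, 2 had higher and 3 lower means in mutants, and 0 passed the threshold. Dhh, another Hedgehog ligand, had 0.186 to 0.569 CPM in mutants and 0.376 to 1.33 CPM in controls. Disp2, a relative of Disp1, had 183 to 348 CPM in mutants and 306 to 437 CPM in controls, with a log2 fold change of 0.07 among libraries with letter P and -0.91 among those with letter R. Scube3, a relative of Scube2, had 10.4 to 16.7 CPM in mutants and 8.98 to 10.7 CPM in controls. Hhat, which attaches palmitate to the ligand, had 3.06 to 3.95 CPM in mutants and 2.68 to 3.29 CPM in controls. The groups overlapped in all 4 genes.

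Among 8 other genes of reception found in the tables, 5 had higher and 3 lower means in mutants, with a median log2 fold change of 0.15 and 0 past the threshold. The glypicans, proteoglycans of the cell surface, lay on both sides. Gpc4 had 15.9 to 25.8 CPM in mutants and 14.6 to 18.5 CPM in controls, Gpc6 had 37.8 to 48.0 CPM in mutants and 30.05 to 44.8 CPM in controls, and Gpc5 had 2.90 to 14.3 CPM in mutants and 12.02 to 14.5 CPM in controls.

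Downstream of Smo, 12 of 24 relay genes had higher and 12 lower means in mutants, with 0 past the threshold. Gli2, the main activator, stood at 50.3, 60.2, 80.002 and 117 CPM in mutants, against 43.2, 39.7, 49.9 and 55.8 CPM in controls, with mutants 2, 3 and 4 above every control. Gli3, largely a repressor, stood at 29.7, 31.4, 30.8 and 44.1 CPM in mutants, against 22.7 to 24.3 CPM in controls, with no overlap. Evc, a protein of the cilium base that acts with Smo, had 24.1 to 41.2 CPM in mutants and 21.04 to 22.6 CPM in controls, also with no overlap. Over all genes tested, 3.6% had every mutant above every control and 2.96% had every mutant below. Sufu, with a log2 fold change of -0.59 (SE 0.11), was the only relay gene of the second kind. Its adjusted p in edgeR's quasi-likelihood test was 0.381.

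Of 12 other target genes, 9 had higher and 3 lower means in mutants, with a median log2 fold change of 0.33 and 0 past the threshold. The lists share genes, as Gli1 is also counted among the relay genes, and 1 gene not reported here among those of reception. In Cdk6, a kinase of cell cycle entry, and in Ccnd2, a cyclin that activates it, every mutant lay above every control. The share of such genes over all genes tested was 3.6%. Cdk6 had 5.60 to 9.22 CPM in mutants and 4.48 to 5.11 CPM in controls, and Ccnd2 had 279 to 446 CPM in mutants and 239 to 274 CPM in controls. Foxm1, a transcription factor of cell division, had 56.5 to 97.2 CPM in mutants and 48.0 to 61.8 CPM in controls. Gli1, the target most often used as a readout of the pathway and named here after its values were seen, had a lower mean in mutants, with 23.1, 26.9, 34.03 and 47.9 CPM in mutants, against 40.2, 38.9, 48.1 and 54.8 CPM in controls. Mutants 1, 2 and 3 lay below every control for Gli1, whereas Ptch1 had a higher mean in mutants.

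**Figure D5:**
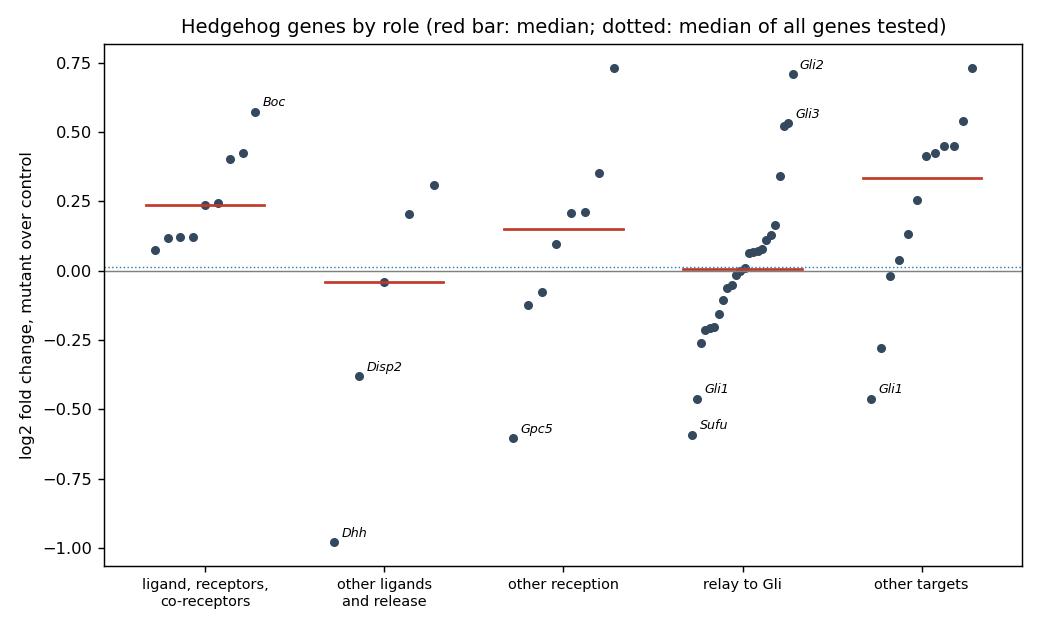
Log2 fold change of mutants over controls (vertical axis) for each tested gene of the 9 described here and of the other Hedgehog genes by role (horizontal axis), with a red bar at the median of each role and a dotted line at the median of all genes tested. The 9 genes all lie above 0 with a median of 0.24, and relay genes spread to both sides, with Sufu at -0.59.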

How the data were processed

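Gene and exon bin tables hold whole-number counts that the authors deposited without normalization, 1 of each per library. The submitters' processing notes name TopHat, HTSeq, DESeq2 and the build mm9 and no versions, while annotation and strand setting are not given in the sources used here. Lines of the tables that name no gene held 24.8 to 34.3% of a gene table's entries and entered neither library sizes nor tests.

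The gene test was the robust quasi-likelihood F test of edgeR 4.0.16 (R 4.3.3), run on genes kept by filterByExpr with TMM scaling (factors 0.986 to 1.01). Genotype was the only term, tests were two-sided, and the Benjamini-Hochberg method was applied over all 15789 genes with a threshold of 0.05. An interaction of genotype and title letter was fitted over the same genes. The 153897 exon bins that passed the filter were tested in the same way, and bin use within a gene with diffSpliceDGE and Simes' method over 13351 genes. DESeq2 1.42.0 and voom in limma 3.58.1 were alternatives, together with other scalings and filters, covariates, 1 title letter alone and leaving out each library. Both tests were tested on simulated data. Sequences came from RefSeq tables on GRCm38.p6, and transcript lengths and overlapping genes from GENCODE M21 on GRCm38.

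The members and the gene lists were chosen with earlier results of these data known. Of each other Hedgehog list, the 4 genes with the smallest p are named, apart from 1 gene that is not reported here, with Sufu as the targeted gene, and for each of the 9 genes the 2 most alike in Pearson's r among genes with a mean of at least 1 CPM (prior count 2). Libraries of a group are separate pups, and within groups the chi-square of gene counts over its degrees of freedom was 7.42 to 81.0 for the 12 pairs of libraries, above counting noise. Replicate numbers follow the order of deposit and pair nothing.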

Additional observations from a re-analysis of the deposited data

Results flagged for a closer look

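In Gas1 the difference between mutants and controls was called as unlike in the 2 title letters, by a narrow margin. The log2 difference R minus P was 0.94 (SE 0.21), and the interaction passed edgeR's quasi-likelihood test with an adjusted p of 0.0496. With RLE scaling the adjusted p of the same test was 0.0546, so the call was lost. Both mutants of letter R lay above both controls of that letter, at 58.4 and 58.5 CPM against 31.5 and 35.4 CPM in the controls. With letter P the mutants stood at 24.1 and 33.4 CPM against 33.4 and 29.9 CPM in controls.

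In 2 related genes 1 mutant stood far from the other 3. Scube3 was at 16.7 CPM in mutant 2, against 10.4 to 10.9 CPM in the other mutants. Gli3 was at 44.1 CPM in mutant 4, against 29.7 to 31.4 CPM in the other mutants. In all, 50 groups of 4 libraries were examined for 25 genes, and chance marks about 1 group in 20.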

How the results depend on the processing

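For the 9 genes, 160 of 171 values under the alternatives kept their direction and none passed the threshold. These values come from the same libraries and are not separate observations. With Xist as a covariate the log2 fold change was -0.0604 for Shh and -0.0288 for Disp1. In that fit it was 0.0436 for Ptch1, 0.34 for Smo, 0.35 for Boc, 0.00572 for Cdon, 0.31 for Gas1, 0.13 for Hhip and 0.43 for Scube2. With the granule precursor score, added after the data were seen, it was -0.0428 for Shh, -0.19 for Gas1, -0.0101 for Disp1 and -0.0596 for Scube2. With letter P alone Gas1 was at -0.14, and with letter R alone Shh was at -0.14 and Disp1 at -0.10. Leaving out each library in turn gave -0.00302 to 0.40 for Scube2 and -0.00708 to 0.15 for Disp1, and no other of the 9 crossed 0. Over all genes, DESeq2 called 52 (40 higher and 12 lower in mutants), libraries of letter P alone 5, letter R alone 1, the granule precursor score 1, and leaving out each library 0 to 1 (1 without mutant 1). With the title letter as a replicate block, the genes past the threshold were 0 and the exon bins 17, and no whole gene of the 9 passed. The deviations of mutants and controls of the same letter correlated at -0.07 to 0.23 and those of different letters at -0.28 to 0.09. Leaving out each library gave 0 to 38 bins past the threshold, with 38 without control 2, and 1 to 2 genes with changed bin use. The count of genes whose difference depended on the letter was 505, and ran from 1 without mutant 2 to 2155 without mutant 3. For Gas1 that difference was 0.92 with RLE scaling, under which the call was lost, and 0.72 to 1.18 over the libraries left out. The cause of these shifts was not tested. Shh, at 84 to 125 counts per library, and the scarcer Disp1 bins are where depth limits the comparison most.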
